A study of Mus musculus with 16 samples.

Results

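The insulin receptor to PI3K genes are the 8 genes Insr, Igf1r, Irs1, Irs2, Pik3r1, Pik3ca, Pik3cb and Inppl1, found by symbol among the 38924 Ensembl identifiers of the count table. All 8 were matched, and all 8 were among the 14103 genes that passed the filter on low counts and were tested. They were measured in bulk RNA-seq of interscapular brown fat, the heat-producing fat depot between the shoulder blades, from C57BL/6J mice. The groups were Akt2 knockout (KO) at 22 °C, wild-type littermates (WT) at 22 °C, KO at 30 °C and WT at 30 °C, with 4 libraries in each. In KO mice Akt2 was targeted for deletion in brown fat through UCP1-CreER, a tamoxifen-activated Cre recombinase. Its promoter is that of Ucp1, the uncoupling protein gene of brown adipocytes. Mice of both genotypes lived at their temperature for 4 weeks, between 9 and 13 weeks of age, and 30 °C is close to thermoneutral for a mouse. The sources used here do not give the tamoxifen schedule or whether WT littermates carried the Cre or received the drug. Each library was of whole tissue, which holds cells in which the Ucp1 promoter is not active. In such samples fewer cells of a type and less RNA per cell cannot be told apart.

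Insulin and insulin-like growth factor 1 (IGF1) bind receptor tyrosine kinases encoded by Insr and Igf1r, which phosphorylate the adaptor proteins IRS1 and IRS2. The adaptors recruit class I phosphoinositide 3-kinase (PI3K), a dimer of a regulatory subunit (here from Pik3r1) and a catalytic subunit (alpha from Pik3ca, beta from Pik3cb). The kinase makes the membrane lipid PIP3, on which AKT kinases are activated, AKT2 being the isoform most tied to insulin action in fat and muscle. SHIP2, the product of Inppl1, removes a phosphate from PIP3 and so opposes the kinase. In adipocytes this route controls glucose uptake and lipid storage, and active AKT holds back FOXO transcription factors, which are known in liver to induce Irs2.

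Promoter sequences are shown for the adaptors Irs1 and Irs2, since their windows share a motif that no other window of the 8 genes held. These 2 genes varied widely between libraries, but so did Pik3r1, whose windows lacked the motif. The motif thus did not mark the variable genes as a set. RefSeq start sites on GRCm38.p6 gave 9 windows of the 250 bases before a start, for 7 of the 8 genes. Insr had no entry. The Irs1 window is chr1:82291440-82291689 and the Irs2 window is chr8:11008930-11009179, both on the minus strand and with no base in a GENCODE M21 exon, written 5′ to 3′ with the E-box CACGTG in capitals.
Irs1: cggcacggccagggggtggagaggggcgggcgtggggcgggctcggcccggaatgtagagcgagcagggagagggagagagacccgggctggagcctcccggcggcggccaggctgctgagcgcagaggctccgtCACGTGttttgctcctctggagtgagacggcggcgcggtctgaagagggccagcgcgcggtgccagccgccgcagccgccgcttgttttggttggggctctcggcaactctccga
Irs2: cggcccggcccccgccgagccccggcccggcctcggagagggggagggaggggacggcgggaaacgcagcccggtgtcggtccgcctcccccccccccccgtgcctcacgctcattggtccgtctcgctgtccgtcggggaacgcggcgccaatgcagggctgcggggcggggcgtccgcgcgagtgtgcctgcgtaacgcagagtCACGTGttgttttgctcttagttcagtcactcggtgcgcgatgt
The E-box, a palindrome read by basic helix-loop-helix factors such as CLOCK with ARNTL, began at position -115 from the RefSeq Irs1 start and at position -44 from the RefSeq Irs2 start. The RefSeq starts are 82291439 for Irs1 and 11008929 for Irs2. On this strand the GENCODE M21 genes start further in, at 82291416 and 11008458, so the distances depend on the source. It was present in 1978 of 32851 RefSeq mouse promoter windows of the same length (6.02%). The longest stretches that the Irs1 and Irs2 windows share on the same strand were 10 bases long, and 2 tied at that length. The stretch gtcacgtgtt contains the E-box and stands in 23 of the 32851 windows, and tgttttgctc does not contain it and stands in 21. A FOXO element (TGTTTAC, in 3.17% of all windows), a cAMP response element (TGACGTCA, 1.55%) and an estrogen-related receptor element (TCAAGGTCA, 0.387%) were searched on both strands and had no match in the 9 windows. A GC box (GGGCGG, in 32.7% of all windows) was in a window of each of the 7 genes. The matches describe letters in these windows and not binding.

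Library totals ranged from 12751528 to 23866743 counts, and 24818 genes had at least 1 count. Levels are given in CPM, the usual scale of counts relative to library size, here with library sizes adjusted by trimmed-mean (TMM) factors, and a gene was called changed at an adjusted p under 0.05 over all genes tested. The targeted gene Akt2 had 82.2 ± 6.03 CPM in KO and 232 ± 19.8 CPM in WT at 22 °C, and 69.4 ± 10.7 CPM in KO and 204 ± 12.9 CPM in WT at 30 °C (SD, n = 4 each), with no overlap between genotypes. The fitted KO level was 0.355 times WT at 22 °C and 0.341 times WT at 30 °C, so Akt2 RNA remained in the tissue. All 8 brown adipocyte markers had at least 10 counts in every library, and their sum was 1.25% to 2.70% of counts. Skeletal muscle markers reached 0.1001% to 0.534% of counts in 4 libraries, called muscle-bearing here (KO replicate 1 at 22 °C, KO replicates 1 and 2 and WT replicate 2 at 30 °C), and at most 0.0747% in the other 12. The log2 difference between the clock genes Dbp and Arntl, which peak at opposite times of day, was -3.46 to -2.21 in KO and -0.80 to 1.78 in WT at 22 °C, and -1.37 to 0.26 in KO and -0.56 to 0.40 in WT at 30 °C. KO at 22 °C overlapped no other group in this difference. A fit with the difference as a covariate, tried below, thus cannot fully separate it from group in comparisons that hold KO at 22 °C. The p-values judge differences between groups against the scatter of libraries within groups. Since the labels stop short of saying that every library is a separate animal, part of that scatter may be technical.

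More of these genes were called between temperatures than between genotypes, as was the case for all genes tested. In KO, 3 of the 8 genes rose at 22 °C against 30 °C (Insr, Pik3cb and Inppl1) and none fell, where 26.7% of all genes tested were called, 13.8% higher and 13% lower. In WT the same 3 genes rose and none fell, where 38.3% of all genes tested were called, 20.5% higher and 17.8% lower. KO against WT at 22 °C gave 1 call of 8, Igf1r, which rose, where 17.6% of all genes tested were called, 7.52% higher and 10.1% lower. KO against WT at 30 °C gave no call and no gene with an unadjusted p under 0.05 in edgeR, and no call in DESeq2 or limma-voom, where 0.0425% of all genes tested were called, 0.0284% higher and 0.0142% lower. The interaction, meaning the KO effect at 22 °C minus that at 30 °C, gave no call among the 8 genes in edgeR, DESeq2 or limma-voom, where 3.14% of all genes tested were called, 0.752% higher and 2.39% lower. Irs2 was the 1 gene of the 8 with an unadjusted p under 0.05 for the interaction. The shares of the 8 genes called lay close to these backgrounds, so the counts say which genes moved and not that the 8 stand apart. The median log2 fold change of the 8 genes was 0.15 for KO against WT at 22 °C, 0.01 at 30 °C, 0.28 for 22 °C against 30 °C in KO and -0.01 in WT. Over all genes tested these medians were 0.02, 0.02, 0.02 and -0.03. Scaling bears on the directions between temperatures. Genes called higher and lower at 22 °C numbered 1943 and 1829 in KO and 2897 and 2509 in WT with TMM factors, and 1179 and 2540 in KO and 2196 and 3382 in WT with upper-quartile factors, under which the median of all genes was -0.08 in KO and -0.13 in WT. Insr, Pik3cb and Inppl1 stayed above 0 in both genotypes under those factors, with Inppl1 at 0.12 in WT and Pik3cb at 0.23 in KO no longer called (adjusted p = 0.297 for Inppl1 and 0.143 for Pik3cb). The comparisons share groups, the WT libraries at 22 °C for example serving in both the KO comparison and the temperature comparison, so they are not independent of each other.

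**Figure D1:**
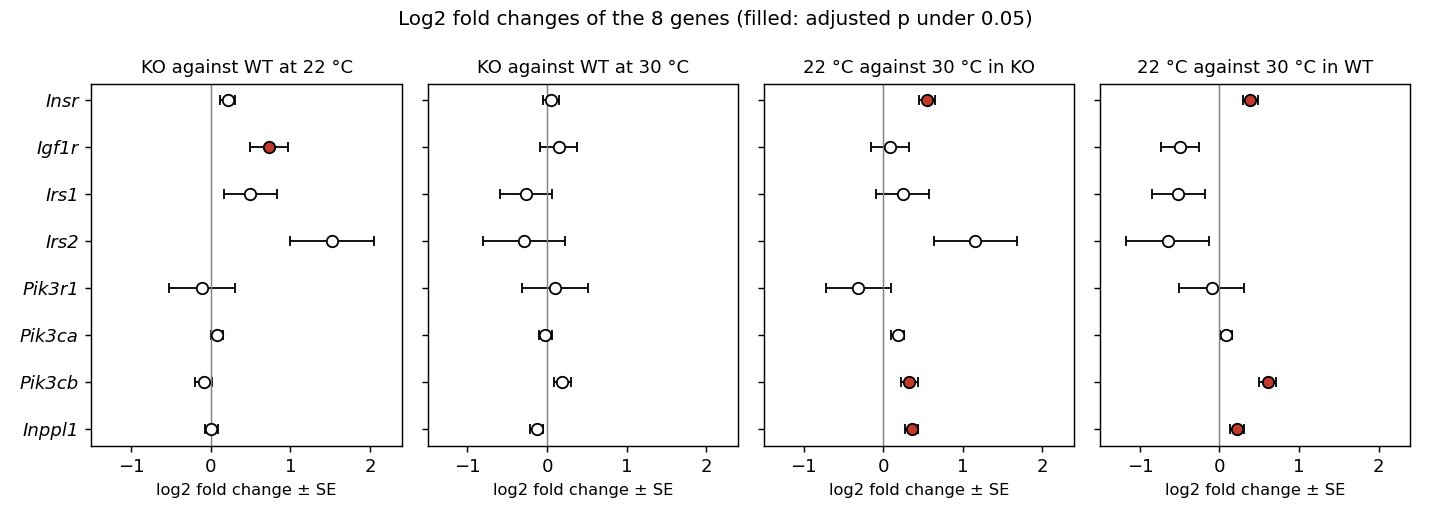
Log2 fold change (x axis) with its standard error for each of the 8 genes (y axis) in KO against WT at 22 °C, KO against WT at 30 °C, 22 °C against 30 °C in KO and 22 °C against 30 °C in WT, with filled points for an adjusted p under 0.05. Insr, Pik3cb and Inppl1 are filled and positive in both temperature panels, Igf1r alone is filled at 22 °C between genotypes, and Irs2 and Pik3r1 have the widest error bars.

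Insr, the insulin receptor gene (ENSMUSG00000005534, chromosome 8, 3122061 to 3279617, minus strand, GRCm38), rose at 22 °C in both genotypes. The KO libraries had 128, 138, 142 and 145 CPM at 22 °C, against 89.6, 107, 90.7 and 89.7 CPM at 30 °C. Every KO library at 22 °C lay above every KO library at 30 °C, and the highest value at 30 °C came from replicate 2, which is muscle-bearing. The WT libraries had 143, 99.5, 122 and 113 CPM at 22 °C, against 90.5, 88.2, 92.6 and 93.3 CPM at 30 °C. The WT ranges also did not overlap, with values spread out at 22 °C and close together at 30 °C. The log2 fold change of 22 °C against 30 °C was 0.55 (SE 0.0960, adjusted p = 0.000821) in KO, a rise of 1.47-fold, and 0.39 (SE 0.0959, adjusted p = 0.00497) in WT, a rise of 1.31-fold. Insr was called in both genotypes under each of the 18 alternative settings tried for that comparison, with log2 fold changes of 0.46 to 0.65 in KO and 0.29 to 0.46 in WT.

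Insr passed the test between genotypes at neither temperature. Its mean at 22 °C was 138 ± 7.43 CPM in KO and 119 ± 18.0 CPM in WT (SD, n = 4 each), a log2 fold change of 0.21 (SE 0.0957, adjusted p = 0.129). The WT range, 99.5 to 143 CPM, took in all but 1 of the KO values, the KO library at 145 CPM. Without WT replicate 1, the highest WT library, the log2 fold change was 0.31 and was called (adjusted p = 0.0279). At 30 °C the means were 94.3 ± 8.64 CPM in KO and 91.2 ± 2.30 CPM in WT, with a log2 fold change of 0.05 (adjusted p = 0.998). The interaction for Insr was 0.16 on the log2 scale (adjusted p = 0.509).

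Igf1r, which encodes the IGF1 receptor (ENSMUSG00000005533, chromosome 7, 67952827 to 68233668, plus strand), had the lowest level of the 8 genes and was called higher in KO at 22 °C. The KO libraries at 22 °C had 5.17, 3.55, 4.61 and 3.03 CPM, against 2.76, 1.75, 2.25 and 3.02 CPM in WT. The ranges touched without overlapping, the lowest KO value being 3.03 and the highest WT value 3.02 CPM. KO over WT gave a log2 fold change of 0.73 (SE 0.238, adjusted p = 0.0447). These values rest on 51 to 76 counts per KO library and 23 to 56 counts per WT library, and at 23 counts the counting error alone is 20.9% of the value. The call held in 6 of 18 alternative settings, with log2 fold changes of 0.30 to 0.85 and adjusted p-values of 0.0298 to 0.889. It was lost without WT replicate 1, 2 or 3 or KO replicate 1, 2 or 3, at adjusted p-values of 0.0557 to 0.124, and with the clock difference as a covariate (log2 fold change 0.30, adjusted p = 0.889).

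At 30 °C the Igf1r level was 3.84 ± 1.04 CPM in KO and 3.47 ± 0.581 CPM in WT (SD, n = 4 each), and the ranges overlapped. Of the 4 groups, WT at 22 °C had the lowest mean, 2.44 ± 0.565 CPM, and its log2 fold change against WT at 30 °C was -0.50 (adjusted p = 0.111). In KO the log2 fold change of 22 °C against 30 °C was 0.09 (adjusted p = 0.814). The highest KO library at 22 °C, replicate 1 at 5.17 CPM, and the highest of all 16, KO replicate 2 at 30 °C with 5.20 CPM, are both muscle-bearing. Without the muscle-bearing libraries the log2 fold change of KO against WT at 22 °C was 0.59 (adjusted p = 0.138). Endothelial markers, from another cell type of the depot, also differed between the genotypes at 22 °C. Of 6 such markers 4 rose in KO against WT at 22 °C, where 7.52% of all genes tested were called higher. The sum of the 6 markers was 0.0723% to 0.0984% of counts in KO and 0.0573% to 0.0759% in WT. The part of muscle or endothelial RNA in the Igf1r value was not tested further.

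Irs1, the first adaptor gene (ENSMUSG00000055980, chromosome 1, 82233101 to 82291416, minus strand), passed the test in no comparison. At 22 °C the KO libraries had 12.3, 15.5, 14.1 and 10.7 CPM, against 6.60, 4.86, 8.31 and 17.5 CPM in WT. The KO values lay above 3 of the WT values, and WT replicate 4 lay above all of them. At 30 °C the KO libraries had 10.9, 11.7, 6.95 and 14.9 CPM, against 18.6, 10.1, 10.1 and 14.7 CPM in WT, with overlapping ranges. The log2 fold change of KO against WT was 0.49 (SE 0.333, adjusted p = 0.308) at 22 °C and -0.26 (adjusted p = 0.998) at 30 °C. For 22 °C against 30 °C it was 0.24 (adjusted p = 0.625) in KO and -0.51 (adjusted p = 0.236) in WT.

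WT replicate 4 at 22 °C decided the Irs1 calls. Without it Irs1 was called higher in KO than in WT at 22 °C (log2 fold change 0.99, adjusted p = 0.0205), lower in WT at 22 °C than at 30 °C (-1.02, adjusted p = 0.00893), and its interaction was called (1.26, adjusted p = 0.0498). The log2 difference of Dbp and Arntl in that library was -0.80, against 0.79 to 1.78 in the other WT libraries at 22 °C. With that difference as a covariate the log2 fold change of KO against WT at 22 °C was -0.70 (adjusted p = 0.722), and its part in the Irs1 values was not tested further. The Irs1 exons overlap those of Gm9747 on the plus strand over 2822 bases, and Gm9747 had 0 counts in all libraries. With no strand setting given, this 0 does not show whether reads in the shared bases were kept for Irs1, which bears on its level per base.

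Irs2, the second adaptor gene (ENSMUSG00000038894, chromosome 8, 10984681 to 11008458, minus strand), had the largest fold changes of the 8 genes and the largest spread, and it too passed the test in no comparison. At 22 °C the KO libraries had 90.7, 55.6, 26.9 and 13.1 CPM, against 9.70, 5.62, 30.0 and 19.3 CPM in WT. The highest KO values stood above every WT value and the lowest KO value stood below 2 of the WT values. At 30 °C the KO libraries had 15.4, 27.7, 16.2 and 23.7 CPM, against 29.5, 16.8, 22.6 and 32.9 CPM in WT. These ranges overlapped and were narrower, with a coefficient of variation of 28.7% in KO and 28.1% in WT at 30 °C, against 73.8% in KO and 67.3% in WT at 22 °C.

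The log2 fold change of Irs2 in KO against WT was 1.52 at 22 °C (SE 0.525, adjusted p = 0.0569) and -0.29 at 30 °C (adjusted p = 0.998). The interaction was 1.81 on the log2 scale (SE 0.735, adjusted p = 0.176). For 22 °C against 30 °C it was 1.16 in KO (SE 0.519, adjusted p = 0.111) and -0.65 in WT (SE 0.521, adjusted p = 0.341). The value at 22 °C between genotypes was called by DESeq2 (1.51, adjusted p = 0.0384), without WT replicate 3 (2.00, adjusted p = 0.0278) and without KO replicate 4 (1.80, adjusted p = 0.0206). Without KO replicate 4 the 22 °C against 30 °C value in KO was called as well (1.44, adjusted p = 0.0396). KO replicate 1 at 22 °C, which had the highest Irs2 value, was also the library with the largest share of muscle markers. Without it the KO against WT value at 22 °C was 0.97 (adjusted p = 0.192), without all muscle-bearing libraries it was 0.97 (adjusted p = 0.223), and with the clock covariate it was -0.04 (adjusted p = 0.995). The E-box windows printed above stand in both adaptor genes, while the clock difference separated KO from WT at 22 °C without overlap, and a part of either in these values was not tested. Irs2 exons share 162 bases with 9530052E02Rik on the plus strand, which had at most 7 counts in a library.

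Pik3r1, which encodes the main regulatory subunit of PI3K (ENSMUSG00000041417, chromosome 13, 101680563 to 101768217, minus strand), varied widely between libraries of a group with no call. At 22 °C the KO libraries had 183, 45.8, 117 and 51.7 CPM, against 102, 78.0, 172 and 77.0 CPM in WT. At 30 °C the KO libraries had 95.2, 214, 72.3 and 112 CPM, against 127, 103, 101 and 129 CPM in WT. All 4 groups overlapped, and WT at 30 °C was the narrow group, with a coefficient of variation of 13.0%, against 64.8% in KO and 41.7% in WT at 22 °C and 50.6% in KO at 30 °C. The log2 fold change of KO against WT was -0.11 (SE 0.412, adjusted p = 0.873) at 22 °C and 0.10 (adjusted p = 0.998) at 30 °C. For 22 °C against 30 °C it was -0.31 (adjusted p = 0.610) in KO and -0.10 (adjusted p = 0.868) in WT. The highest KO library at each temperature was muscle-bearing, with muscle markers at 0.534% of counts at 22 °C and 0.338% at 30 °C, while the highest WT library, replicate 3 at 22 °C, had 0.000476%. Without the muscle-bearing libraries the Pik3r1 mean was 71.5 CPM in KO at 22 °C, 92.2 CPM in KO at 30 °C and 119 CPM in WT at 30 °C.

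Pik3ca, the gene of the alpha catalytic subunit (ENSMUSG00000027665, chromosome 3, 32397671 to 32468486, plus strand), was the least variable of the 8 genes and was not called. At 22 °C the KO libraries had 48.4, 55.0, 51.6 and 49.4 CPM, against 55.5, 44.7, 44.8 and 48.3 CPM in WT. At 30 °C the KO libraries had 44.0, 48.6, 42.7 and 45.0 CPM, against 42.6, 45.2, 48.3 and 46.9 CPM in WT. Values overlapped in all comparisons, and the highest of the 16 was 1.30 times the lowest. The log2 fold change of 22 °C against 30 °C was 0.18 (SE 0.0792, adjusted p = 0.104) in KO and 0.08 (adjusted p = 0.446) in WT, and limma-voom called the KO value (0.21, adjusted p = 0.0107). KO against WT gave 0.08 (SE 0.0790, adjusted p = 0.503) at 22 °C and -0.02 (adjusted p = 0.998) at 30 °C.

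Pik3cb, the gene of the beta catalytic subunit (ENSMUSG00000032462, chromosome 9, 99036654 to 99140621, minus strand), rose at 22 °C in both genotypes. The KO libraries had 19.1, 19.7, 18.6 and 18.8 CPM at 22 °C, against 17.2, 14.7, 14.0 and 14.9 CPM at 30 °C. The WT libraries had 18.9, 17.1, 25.4 and 19.8 CPM at 22 °C, against 14.4, 12.8, 12.9 and 13.1 CPM at 30 °C. In neither genotype did the ranges overlap, and KO at 22 °C was a tight group while WT at 22 °C held the highest value, replicate 3. The rise on the log2 scale was 0.33 (SE 0.107, adjusted p = 0.0333) in KO and 0.61 (SE 0.107, adjusted p = 0.000407) in WT, which is 1.25-fold in KO and 1.52-fold in WT. The WT call held in all 18 alternative settings and the KO call in 7 of 18, with adjusted p-values in KO up to 0.204. In KO it was lost without KO replicate 2, 3 or 4 at 30 °C and without KO replicate 2, 3 or 4 at 22 °C, at adjusted p-values of 0.0557 to 0.0943. The interaction was -0.28 (SE 0.150, adjusted p = 0.298), so the temperature response was not shown to differ between genotypes. KO against WT gave -0.09 (adjusted p = 0.574) at 22 °C and 0.19 (adjusted p = 0.998) at 30 °C.

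Inppl1, which encodes the opposing phosphatase SHIP2 (ENSMUSG00000032737, chromosome 7, 101822632 to 101838229, minus strand), rose at 22 °C in both genotypes, with a call that held under more settings in KO. The KO libraries had 147, 179, 174 and 177 CPM at 22 °C, against 126, 140, 137 and 125 CPM at 30 °C. The KO ranges did not overlap, and the lowest KO library at 22 °C was replicate 1, the library with the largest share of muscle markers. The WT libraries had 178, 150, 172 and 174 CPM at 22 °C, against 129, 149, 152 and 148 CPM at 30 °C. The WT ranges overlapped, since WT replicate 2 at 22 °C lay below WT replicate 3 at 30 °C. On the log2 scale the change was 0.36 (SE 0.0835, adjusted p = 0.00568) in KO, a rise of 1.28-fold, and 0.22 (SE 0.0834, adjusted p = 0.0472) in WT, a rise of 1.17-fold.

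The KO call of Inppl1 held in 17 of 18 alternative settings and was lost with the clock covariate (adjusted p = 0.0636). The WT call held in 4 of 18, with log2 fold changes of 0.12 to 0.27, and was lost without any 1 of the 4 WT libraries at 30 °C or without WT replicate 1, 3 or 4 at 22 °C, at adjusted p-values of 0.0589 to 0.165. Its log2 fold change between genotypes was 0.00 at 22 °C (SE 0.0833, adjusted p = 0.972) and -0.13 at 30 °C (adjusted p = 0.998), and its interaction was 0.14 (adjusted p = 0.523). Inppl1 exons overlap those of Gm10602 on the plus strand over 1204 bases, and Gm10602 had 20 to 82 counts per library. With no strand setting given, Gm10602 reads could not be separated from Inppl1 reads.

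**Figure D2:**
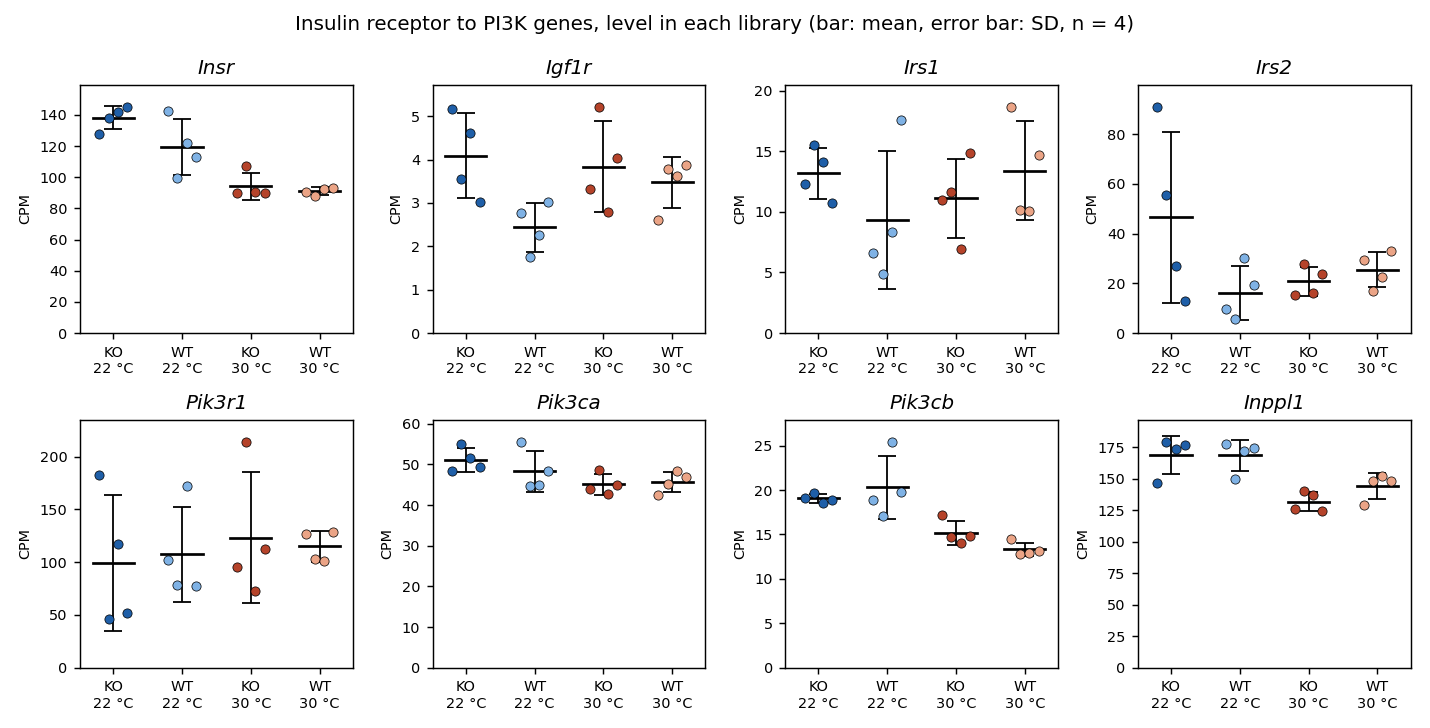
Level of each of the 8 genes in CPM (y axis) in each of the 16 libraries, grouped along the x axis as KO 22 °C, WT 22 °C, KO 30 °C and WT 30 °C, with a bar for the mean and an error bar for the SD (n = 4). Insr and Pik3cb lie higher at 22 °C with no overlap in either genotype, Inppl1 does so in KO, and Irs2 in KO at 22 °C runs from 13.1 to 90.7 CPM.

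Of the 8 genes, the groups did not overlap for 1 gene in KO against WT at 22 °C (17.5% of all genes tested), for none in KO against WT at 30 °C (5.93%), for 3 in 22 °C against 30 °C in KO (32.6%) and for 2 in WT (35.3%). Brown adipocyte markers moved with temperature as well. Of these 8 markers 2 rose at 22 °C in KO and 4 rose and 1 fell in WT, and their sum was 1.75% to 2.31% of counts in KO and 1.64% to 2.70% in WT at 22 °C, against 1.25% to 1.47% in KO and 1.27% to 1.43% in WT at 30 °C. Markers of some other cell types moved the other way, with 5 of 7 macrophage markers lower at 22 °C in each genotype. Of 6 endothelial markers 2 fell in KO and 4 in WT, and of 5 fibroblast and preadipocyte markers 1 fell in KO and 3 in WT. Of 5 lymphocyte markers 0 fell in KO and 1 in WT. No Schwann cell or skeletal muscle marker was called. Their median log2 fold changes were 0.56 in KO and 0.32 in WT for Schwann cells, and 0.55 in KO and -2.59 in WT for muscle. Of all genes tested, 13.8% were called higher and 13% lower in KO, and 20.5% higher and 17.8% lower in WT. The part of these cell types in the Insr, Pik3cb and Inppl1 values was not tested.

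Per length of exon, the phosphatase gene was the most abundant of the 8 and the IGF1 receptor gene the least. Levels set between genes are CPM per kilobase of the gene's merged GENCODE M21 exons. Inppl1 had a mean of 26.4 CPM per kilobase in KO and 26.3 in WT at 22 °C, and 20.6 in KO and 22.6 in WT at 30 °C. Pik3r1 was second by its mean in every group but KO at 22 °C, where Insr was. Insr had 10.05 CPM per kilobase in KO and 8.68 in WT at 22 °C, and 6.86 in KO and 6.63 in WT at 30 °C. Pik3r1 had 9.85 CPM per kilobase in KO and 10.6 in WT at 22 °C, and 12.2 in KO and 11.4 in WT at 30 °C. The library ranges of Insr and Pik3r1 overlapped in every group except WT at 30 °C, and in KO at 30 °C the Pik3r1 range also reached that of Inppl1.

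The alpha catalytic subunit gene was more abundant per length than the beta gene in every library. The ratio of Pik3ca to Pik3cb, in counts per base of exon, averaged 2.12 ± 0.0988 in KO and 1.93 ± 0.390 in WT at 22 °C, and 2.36 ± 0.244 in KO and 2.73 ± 0.275 in WT at 30 °C (SD, n = 4 each). Its lowest value was 1.40, in a WT library at 22 °C, and its highest was 2.96, in a WT library at 30 °C. Irs2 exceeded Irs1 in every library, with a ratio in counts per base of 5.08 ± 3.97 in KO and 2.65 ± 1.73 in WT at 22 °C, and 2.79 ± 0.724 in KO and 2.79 ± 0.519 in WT at 30 °C. Irs1 had 1.44 CPM per kilobase in KO and 1.02 in WT at 22 °C, and 1.21 in KO and 1.46 in WT at 30 °C. At the bottom, Igf1r had 0.244 CPM per kilobase in KO and 0.146 in WT at 22 °C, and 0.228 in KO and 0.207 in WT at 30 °C.

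The insulin receptor gene exceeded the IGF1 receptor gene by at least 25.2 times per base in every library. The ratio of Insr to Igf1r averaged 43.4 ± 12.2 in KO and 61.2 ± 10.6 in WT at 22 °C, and 31.2 ± 6.50 in KO and 32.8 ± 6.39 in WT at 30 °C. The WT libraries ran from 45.8 to 69.6 at 22 °C and from 28.5 to 42.3 at 30 °C, without overlap, while the KO ranges overlapped. The ratio of Pik3r1 to the sum of Pik3ca and Pik3cb was 1.21 ± 0.811 in KO and 1.30 ± 0.490 in WT at 22 °C, and 1.71 ± 0.799 in KO and 1.66 ± 0.231 in WT at 30 °C, and its ranges overlapped in all comparisons. These ratios are descriptions and were not tested.

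**Figure D3:**
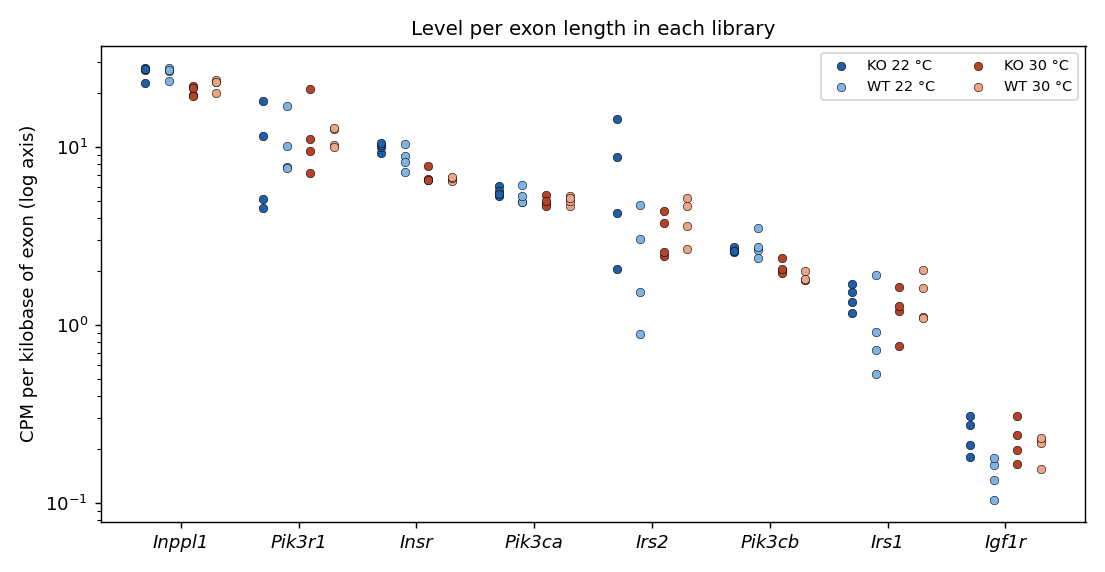
CPM per kilobase of exon (y axis, log axis) of each of the 8 genes (x axis, ordered by level) in each library, with a column of points per group in the order KO 22 °C, WT 22 °C, KO 30 °C and WT 30 °C. Inppl1 stands highest and Igf1r lowest, and Pik3r1, Irs2 and Irs1 have long columns within a group while Pik3ca and Pik3cb have short ones.

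The 8 genes fell into a variable and a steady set by their spread within groups. The biological coefficient of variation that edgeR estimated for a gene was 50.0% for Irs2, 40.2% for Pik3r1 and 32.7% for Irs1, which stood at the 95.8, 93.2 and 88.5 percentiles of all genes tested. It was 11.4% for Pik3cb, 11.2% for Insr, 10.3% for Inppl1 and 9.43% for Pik3ca, all under the median of 15.6% over all genes tested. Igf1r, at 22.6%, lay between the sets. The ratio of the highest to the lowest library was 16.1 for Irs2, 4.66 for Pik3r1 and 3.83 for Irs1, against 1.98 for Pik3cb, 1.64 for Insr and 1.44 for Inppl1. At the lowest count of each gene the counting error, which this coefficient leaves out, was 12.5% for Irs1, 11.6% for Irs2 and 3.66% for Pik3r1. All calls between temperatures were for genes of the steady set, but the test itself judges a fold change against this spread. In KO, Irs2 was not called at a temperature log2 fold change of 1.16 (SE 0.519), while Insr was called at 0.55 (SE 0.0960). The calls thus do not show that the variable set responded less to temperature.

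The genes with the most similar profiles were found by the root mean square difference of centred log2 CPM over the 16 libraries, among 10172 candidates. For Insr they were Wapl (0.0914), Fam210a (0.0934) and Osbpl11 (0.0982). For Inppl1 they were Dennd5a (0.0607), Vps33a (0.0721) and Rab22a (0.0776), for Pik3cb Cab39l (0.119), Twf1 (0.123) and Serp1 (0.130), and for Igf1r Ern1 (0.203), Cacna1c (0.204) and Prdm2 (0.207).

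The other genes of the route were taken as 7 lists with 46 genes, of which 43 were tested. Insrr, Irs4 and Pik3c2g had at most 6 counts in any library and were not tested. In 22 °C against 30 °C, 4 rose and 8 fell in KO, and 5 rose and 11 fell in WT. That is 27.9% of the list genes in KO and 37.2% in WT, where 26.7% of all genes tested were called in KO and 38.3% in WT. KO against WT at 22 °C gave 3 that rose and 3 that fell, which is 14% where 17.6% of all genes tested were called. These shares lay close to the backgrounds, so the counts name the genes that moved and do not set the lists apart. KO against WT at 30 °C gave no call in edgeR, DESeq2 or limma-voom, with 4 genes at an unadjusted p under 0.05 in edgeR. Leaving out WT replicate 4 at 22 °C brought the calls between genotypes at 22 °C to 10 in all, and leaving out KO replicate 1 brought them to 3. The median log2 fold change of the 43 genes was -0.06 for temperature in KO, -0.19 in WT, 0.14 for KO against WT at 22 °C and -0.07 at 30 °C. Of the 12 temperature calls in KO, those of Dok1, Gab1, Grb10, Inpp5k, Mtor, Pdpk1 and Rictor were lost with the clock covariate and again once the muscle-bearing libraries were dropped. Dropping those libraries left 3 KO libraries at 22 °C and 2 at 30 °C. A call lost there cannot tell muscle RNA from the smaller number of libraries. The Inpp5d call was lost with the clock covariate (adjusted p = 0.0706).

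Among the receptors and ligands, Igf2r, which clears IGF2 from the cell surface, fell at 22 °C, to 77.6 ± 9.27 CPM in KO against 114 ± 6.57 CPM at 30 °C, and to 80.3 ± 15.3 CPM in WT against 135 ± 16.7 CPM at 30 °C. Igf1 and Igf2 were not called in either genotype. In the adaptor list Sh2b2, whose product APS binds the activated insulin receptor, rose at 22 °C to 205 ± 30.5 CPM in KO against 111 ± 11.9 CPM at 30 °C, and to 215 ± 37.1 CPM in WT against 110 ± 11.5 CPM at 30 °C. Its log2 fold change was 0.89 (SE 0.133, adjusted p = 0.000272) in KO and 0.97 (SE 0.133, adjusted p = 4.90e-05) in WT, and it was called in all 18 alternative settings in both genotypes. Its relative Sh2b1 rose in WT by 0.37 on the log2 scale. Dok1, a docking protein that dampens tyrosine kinase signals, fell by 0.60 in KO and 1.16 in WT on the same scale, and Gab1, another docking protein, fell by 0.64 in KO. Without the muscle-bearing libraries the KO values were -0.55 for Dok1 (adjusted p = 0.0899) and -0.57 for Gab1 (adjusted p = 0.0981), and with the clock covariate the adjusted p-values were 0.0780 for Dok1 and 0.179 for Gab1.

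Of 8 receptor inhibitors, 0 rose and 1 fell at 22 °C in KO, where 13.8% of all genes tested were called higher and 13% lower, and 1 rose and 2 fell in WT, where 20.5% were called higher and 17.8% lower. With 8 genes these counts do not set the inhibitors apart. Grb10, an adaptor that blocks the insulin and IGF1 receptors, fell at 22 °C by 0.60 on the log2 scale in KO and by 0.74 in WT. The KO value of Grb10 was -0.41 without the muscle-bearing libraries (adjusted p = 0.197) and -0.49 with the clock covariate (adjusted p = 0.197). Grb14, a related inhibitor of the insulin receptor, was lower in KO than in WT at 22 °C, with 43.2 ± 6.23 CPM in KO and 112 ± 15.6 CPM in WT (log2 fold change -1.37, SE 0.169, adjusted p = 9.24e-05), a call kept in all 18 alternative settings. At 30 °C Grb14 had 58.2 ± 15.4 CPM in KO and 79.4 ± 9.58 CPM in WT and was not called. In WT Grb14 rose at 22 °C by 0.49 (adjusted p = 0.0283), a call lost on leaving out replicate 1 or 3 of the WT libraries at 30 °C, or replicate 2 or 4 at 22 °C (adjusted p-values of 0.0550 to 0.0867), and with upper-quartile factors or limma-voom. Socs3, an inducible inhibitor of cytokine and insulin receptors, was called higher in KO at 22 °C (2.66, SE 0.870, adjusted p = 0.0459) on 18.4 ± 30.1 CPM in KO and 2.92 ± 0.823 CPM in WT. The Socs3 call held in 7 of 17 settings. Without KO replicate 1 the value was 0.19 (adjusted p = 0.804), and it was also lost without any 1 of the 4 WT libraries, at adjusted p-values of 0.0697 to 0.0976. Socs1 was called lower at 22 °C in WT (-0.94, adjusted p = 0.0478), on a mean of 0.751 CPM at 22 °C against 1.42 CPM at 30 °C, and that call held in 7 of 18 settings.

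Of 6 other class I PI3K genes tested, 1 fell at 22 °C in KO and 3 fell in WT, and of 4 class II and III genes 1 fell in each genotype. None of the 10 rose at 22 °C, where 13.8% of all genes tested were called higher in KO and 20.5% in WT. Called lower were 13% in KO and 17.8% in WT, and no test set these genes against the rest. Pik3r6, a regulatory subunit of the gamma enzyme, fell at 22 °C by 0.87 on the log2 scale in KO and by 0.75 in WT. Pik3c2b, a class II PI3K, fell to 7.64 ± 0.835 CPM in KO against 18.7 ± 1.38 CPM at 30 °C, and to 7.30 ± 2.22 CPM in WT against 17.6 ± 2.94 CPM at 30 °C (log2 fold changes -1.29 and -1.27). Both genes were called in all 18 alternative settings in each genotype. Pik3cg and Pik3r3 fell in WT by 1.08 and 0.72, the Pik3r3 call being lost on leaving out WT replicate 4 at 30 °C, or either of WT replicates 1 and 2 at 22 °C. The gamma enzyme is known mainly from blood cells, and macrophage markers summed to 0.00599% to 0.00766% of counts in KO and 0.00506% to 0.00922% in WT at 22 °C, against 0.0116% to 0.0141% in KO and 0.0110% to 0.0163% in WT at 30 °C. The part of such cells in the Pik3r6 and Pik3cg values was not tested.

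Of the other phosphoinositide phosphatases, Inpp5d, which encodes the blood cell phosphatase SHIP1, fell at 22 °C by 0.60 on the log2 scale in KO and by 0.96 in WT, and so took the opposite direction from its relative Inppl1. Of 7 macrophage markers 5 also fell at 22 °C in each genotype, and the part of such cells in the Inpp5d values was not tested. Inpp5k fell by 0.33 in KO and by 0.34 in WT, its KO call being lost without the muscle-bearing libraries (adjusted p = 0.0573) and with the clock covariate (adjusted p = 0.0686), and Inpp4b fell by 1.37 in WT at 0.572 CPM against 1.51 CPM at 30 °C.

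Among the downstream kinases, Mtor had 130 ± 5.28 CPM in KO and 227 ± 42.1 CPM in WT at 22 °C, and 101 ± 5.66 CPM in KO and 107 ± 7.07 CPM in WT at 30 °C. It was called lower in KO than in WT at 22 °C (log2 fold change -0.80, SE 0.107, adjusted p = 0.000193) and higher at 22 °C than at 30 °C in both KO (0.37, adjusted p = 0.0187) and WT (1.08, adjusted p = 3.15e-06). The KO temperature call was lost when KO replicate 3 at 30 °C was left out (adjusted p = 0.0601), and when KO replicate 2 at 22 °C was left out (adjusted p = 0.0556). Upper-quartile factors (adjusted p = 0.0652), dropping the muscle-bearing libraries (0.42, adjusted p = 0.0780) and the clock covariate (0.27, adjusted p = 0.286) ended it as well, and the covariate also ended the call between genotypes at 22 °C (-0.96, adjusted p = 0.0598). Akt1, another AKT isoform gene, rose in KO against WT at 22 °C by 0.37 on the log2 scale (adjusted p = 0.00745), a call lost when only the groups compared were fitted (0.37, adjusted p = 0.0673) and with the clock covariate (0.40, adjusted p = 0.450). Mapkap1, a subunit of the mTORC2 complex that phosphorylates AKT, had 62.8 ± 4.37 CPM in KO and 75.7 ± 7.15 CPM in WT at 22 °C and was called lower in KO (log2 fold change -0.27, adjusted p = 0.0207), a call that held in 12 of 18 settings. It was lost when only the groups compared were fitted, with the clock covariate, once the muscle-bearing libraries were dropped, and on leaving out WT replicate 1, KO replicate 1 or KO replicate 3. In WT Mapkap1 rose at 22 °C by 0.41. In KO the kinase gene Pdpk1 rose at 22 °C by 0.46 and Rictor, another mTORC2 subunit, by 0.42. The Pdpk1 call was lost on removal of KO replicate 1 (30 °C) or 2 (22 °C), with upper-quartile factors (0.37, adjusted p = 0.0510), without the muscle-bearing libraries (0.48, adjusted p = 0.107) and with the clock covariate (0.24, adjusted p = 0.440). The Rictor call was lost in 8 of 18 settings, among them the muscle-bearing libraries left out (0.37, adjusted p = 0.108), the clock covariate (0.14, adjusted p = 0.680) and the removal of KO replicate 1 at 22 °C and of KO replicate 1, 3 or 4 at 30 °C.

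**Figure D4:**
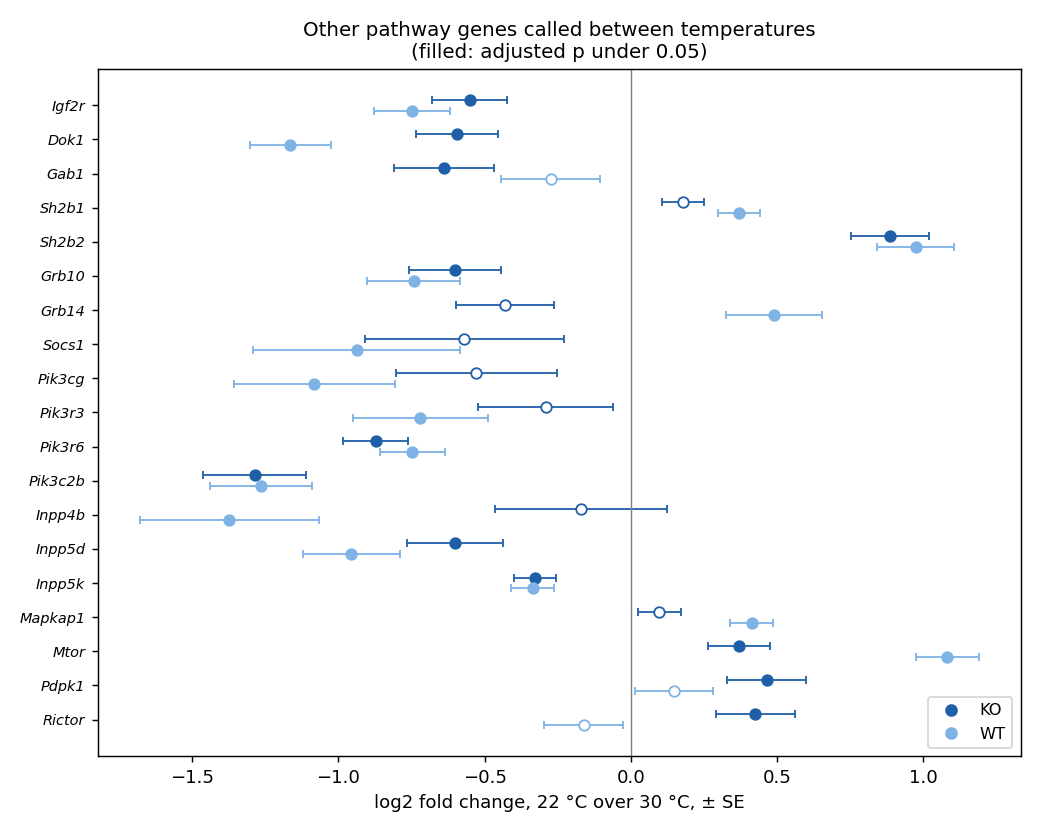
Log2 fold change of 22 °C over 30 °C (x axis) with its standard error for the 19 other genes of the route that were called in KO or in WT (y axis), with a dark point for KO above a light point for WT and filled points for an adjusted p under 0.05. Sh2b2 and Mtor are filled on the positive side in both genotypes, and Pik3c2b, Pik3r6, Igf2r, Grb10, Dok1, Inpp5d and Inpp5k are filled on the negative side in both.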

How the data were processed

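The 8 genes, the lists, the rule for naming genes and the alternatives were chosen with earlier results of these data known. Gene expression was measured by bulk RNA-seq of interscapular brown fat in 16 libraries, grouped by their titles into 4 groups of 4. The authors deposited raw read counts per Ensembl gene, not normalised as far as the values show. FastQC 0.10.1, STAR 2.4.2a and edgeR 3.14.0 with GRCm38 and mm10 are named per the submitters' processing notes. Which program and annotation were used for counting, and whether strand was used, is not given in the sources used here. As the labels' protocols state, libraries were made from total RNA by standard Illumina procedures.

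Symbols were matched for 37607 identifiers. The 1317 others took up to 0.131% of a library. All 16 libraries entered 1 edgeR 4.0.16 quasi-likelihood fit in R 4.3.3 with TMM factors and a term per group. filterByExpr (minimum count 10) kept 14103 genes, whose lowest share of a library's counts was 99.9% after rounding, and p-values were adjusted by Benjamini-Hochberg over them. Standard errors were taken from the fold change and the F statistic. Counting errors cover counting only. Coordinates and exon lengths are from GENCODE M21 on GRCm38, and promoters from RefSeq on GRCm38.p6. Of each pathway list, called genes with the smallest p were named, up to 3 per comparison. Some genes of the lists are not reported here and are left out of the counts. Profile neighbours had a mean log2 CPM of at least 2 and no predicted-gene or pseudogene name.

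Alternatives were DESeq2 1.42.0, voom with quality weights (limma 3.58.1), other factors (relative log expression, upper quartile), other filters (none, or a mean count of 20 with 4 libraries at a CPM of 1 or more), a fit of only the 2 groups, a block for replicate number, the Dbp and Arntl difference as a covariate, and leaving out the muscle-bearing libraries (over 0.1% of counts) or each library in turn. The test was tried on simulated counts with known changes, drawn with the spread fitted to these data. That trial held no muscle or clock differences, and no result above rests on it. No pair of libraries agreed within sampling noise.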

Additional observations from a re-analysis of the deposited data

Results flagged for a closer look

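In 3 of 52 sets of 4 libraries checked, the most extreme library stood apart from the others (a gap over 0.829 of the range), and chance alone gives about 1 in 20. Inppl1 in KO at 22 °C had its lowest library, replicate 1, at 147 CPM, with the other libraries at 174 to 179 CPM. Insr in KO at 30 °C had its highest library, replicate 2, at 107 CPM, with the others at 89.6 to 90.7 CPM. The ratio of Irs2 to Irs1 in counts per base was 5.22 in WT replicate 3 at 22 °C, the highest of that group. KO replicate 1 at 22 °C and KO replicate 2 at 30 °C are muscle-bearing, and the part of muscle RNA in these values was not tested.

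The KO effect differed between temperatures by the interaction test for 2 genes of the pathway lists. It was lower at 22 °C than at 30 °C for Mtor (-0.71 on the log2 scale, adjusted p = 0.0228) and for Grb14 (-0.92, adjusted p = 0.0468). Of 25 alternatives Mtor was called in 21 and Grb14 in 8. The Mtor call was lost with the replicate block (-0.70, adjusted p = 0.0571), without the muscle-bearing libraries (-0.67, adjusted p = 0.166), with the clock covariate (-0.85, adjusted p = 0.219) and without KO replicate 1 at 30 °C (-0.71, adjusted p = 0.0521). The Grb14 call was kept in 3 of 16 fits that left out a single library, with adjusted p-values up to 0.0928. It was also lost with upper-quartile factors (adjusted p = 0.0508), no filter (adjusted p = 0.0550), limma-voom (adjusted p = 0.0586) and the clock covariate (adjusted p = 0.239).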

How the results depend on the processing

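No value of the 8 genes that was called changed direction under any alternative. Of 776 values of single genes under alternatives, 695 kept their direction and side of the threshold, 38 lost the call, 9 gained it, and 34 changed sign while called in neither. Most of the 776 were of results not called in the main fit, which had no call to lose. The losses were 12 of 18 for Igf1r between genotypes at 22 °C and 14 of 18 for Inppl1 between temperatures in WT. In KO they were 11 of 18 for Pik3cb and 1 of 18 for Inppl1 between temperatures. KO against WT at 22 °C gave 1 called gene of the 8, and it gave 0 with no filter, limma-voom, only the groups compared, the muscle-bearing libraries left out or the clock covariate, and 2 with DESeq2. Leaving out single libraries gave 0 to 2 genes there, 2 to 3 for temperature in each genotype, 0 in each case for KO against WT at 30 °C, and 0 to 1 for the interaction. The clock covariate left 1 of the 3 genes called for temperature in KO, Insr. With it the Inppl1 value in KO went from 0.36 (SE 0.0835) to 0.37 (SE 0.127), and the Pik3cb value from 0.33 (SE 0.107) to 0.33 (SE 0.166). The clock difference separated KO at 22 °C from every other group, so a call lost with this covariate cannot tell clock from group. Leaving out the muscle-bearing libraries left 3 KO libraries at 22 °C and 2 at 30 °C, so calls lost there also rest on fewer libraries. The cause of the losses under the alternatives was not tested.

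With the replicate number as a block, 0 of the 8 genes were called in KO against WT at 22 °C (Igf1r 0.74, adjusted p = 0.0773), Pik3cb was lost for temperature in KO (adjusted p = 0.0506) and Inppl1 in WT (adjusted p = 0.0556). Same-numbered libraries correlated at -0.49 to 0.52 (median 0.18) and others at -0.62 to 0.55 (median -0.03). The ranges overlapped while the same-number median was higher, so whether the numbers pair the libraries could not be decided from these values.

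Counts over all genes bear on the backgrounds. For KO against WT at 22 °C 2482 genes were called, against 634 with only the groups compared, 1432 once muscle-bearing libraries were left out and 109 with the clock covariate. At 30 °C 6 were called, against 22 with DESeq2, 44 with limma-voom and 1 without muscle-bearing libraries. For temperature in KO 3772 were called, against 6067 with limma-voom, 2115 once those libraries were left out and 2212 with the clock covariate. For the interaction 443 were called, against 236 with no filter, 1060 with DESeq2, 1050 with limma-voom, 186 with the block, 96 without muscle-bearing libraries, 23 with the clock covariate and 147 to 1085 with single libraries left out, the highest without WT replicate 4 at 22 °C. Among the pathway genes, KO against WT at 22 °C gave 6, against 2, 3 and 1 under the first 3 of these settings, and temperature in KO gave 12, against 20 with limma-voom, 7 when those libraries were dropped and 5 with the clock covariate. Rictor, called higher in KO than in WT at 22 °C (0.45), had a value of -5.18e-05 with the clock covariate, the 1 called value of a pathway gene that changed sign. Of the 8 genes depth limits Igf1r most, at 23 counts in its lowest library.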
